A study of Mus musculus with 30 samples.

Results

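The comparison is that of PDPN+ stromal cells cultured with 1 uM BMS493 against PDPN+ stromal cells from direct co-culture with macrophages, over all genes. Its members are the 3 libraries titled as PDPN BMS493 replicates and the 3 titled as PDPN direct co-culture replicates, 6 of the 30 libraries of the series. The series measured polyA RNA of mouse macrophages and PDPN+ cells in 10 groups of 3 libraries, under a title that pairs macrophages with vitamin A. PDPN+ cells are cells sorted on podoplanin, a surface glycoprotein of fibroblasts and mesothelial cells, and the labels place them in the omentum and in vitro. BMS493 is a synthetic inverse agonist of retinoic acid receptors: it binds them and strengthens their hold on corepressors. The BMS493 group carries the treatment label for 1 uM BMS493 and the co-culture group the label for co-culture, with no compound named. Whether the BMS493 cultures also held macrophages, what vehicle the co-cultures received, how long the cultures ran, and the strain, genotype and age of the mice were not known from the labels. The contrast is therefore between the groups as labelled, and the compound and any other difference between the cultures cannot be told apart. Marker levels that bear on macrophages in the BMS493 cultures are given below.

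Retinoic acid is made from vitamin A in steps: retinol is oxidised to retinaldehyde by retinol dehydrogenases such as Rdh10, and retinaldehyde to retinoic acid by the Aldh1a enzymes. It binds the receptors Rara, Rarb and Rarg, which sit with an Rxr partner on paired core sites in DNA. Bound receptors raise the transcription of target genes, among them Rarb itself and genes that clear retinoids (the Cyp26 enzymes) or return retinaldehyde to retinol (Dhrs3), so the pathway limits itself. Omental stromal cells are known as a source of retinoic acid for peritoneal macrophages, in which it sustains the factor Gata6.

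The promoters of 4 genes are shown because they are the genes on which the retinoid results turn: the receptor and target Rarb, the called genes Dhrs3 and Resf1, and the clearing enzyme Cyp26a1, which carries the same kind of paired site as Rarb. Each is the 250 bases before the annotated start, from RefSeq on GRCm38.p6, written 5′ to 3′ on the gene's strand. Capitals mark a direct repeat of core sites with 5 letters between them, and a sequence with no capitals held no match. The spans are chr14:16575477-16575726 (minus strand) for Rarb, chr19:37697558-37697807 (plus) for Cyp26a1, chr4:144892577-144892826 (plus) for the first of 3 Dhrs3 entries, and chr6:149309164-149309413 (plus) for Resf1.
Rarb: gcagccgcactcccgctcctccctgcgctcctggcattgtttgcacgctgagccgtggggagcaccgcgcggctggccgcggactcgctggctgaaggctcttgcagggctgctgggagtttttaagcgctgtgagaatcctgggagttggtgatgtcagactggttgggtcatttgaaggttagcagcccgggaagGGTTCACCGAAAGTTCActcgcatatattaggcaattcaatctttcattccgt
Cyp26a1: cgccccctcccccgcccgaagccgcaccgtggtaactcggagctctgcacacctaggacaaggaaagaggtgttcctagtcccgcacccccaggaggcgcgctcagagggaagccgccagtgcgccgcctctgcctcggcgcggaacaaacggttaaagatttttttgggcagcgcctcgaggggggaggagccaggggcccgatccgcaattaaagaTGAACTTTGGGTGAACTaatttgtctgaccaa
Dhrs3: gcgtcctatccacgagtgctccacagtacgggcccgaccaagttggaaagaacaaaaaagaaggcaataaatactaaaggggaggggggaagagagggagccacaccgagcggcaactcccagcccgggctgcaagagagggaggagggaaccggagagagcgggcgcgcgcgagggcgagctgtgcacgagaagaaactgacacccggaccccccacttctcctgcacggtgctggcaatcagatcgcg
Resf1: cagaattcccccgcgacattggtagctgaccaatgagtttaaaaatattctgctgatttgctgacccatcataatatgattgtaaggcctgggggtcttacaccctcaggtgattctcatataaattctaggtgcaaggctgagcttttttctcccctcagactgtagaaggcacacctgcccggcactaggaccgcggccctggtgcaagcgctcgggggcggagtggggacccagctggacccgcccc

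The core sites searched were AGGTCA, together with the form GGGTCA, the form AGTTCA and the form GGTTCA, as direct repeats with 5, 2 or 1 letters between them, on both strands of the windows from 250 bases before to 50 bases after each start. The repeat with 5 letters lay in 32 of 32851 promoters (0.0974%), that with 2 letters in 88 (0.268%) and that with 1 letter in 73 (0.222%). Of the 60 genes named by the rule or called, 43 had a promoter in the table. Among these, Rarb held a repeat with 5 letters between bases 53 and 37 before its start, Cyp26a1 held one on the opposite strand between bases 32 and 16, and Bco1 held a repeat with 1 letter. These matches are letters in a window and describe no binding.

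The 6 libraries held 29718802 to 51206582 counts each, with RNA integrity numbers of 9.6 to 10. They came from unequal numbers of sorted cells: 25000, 22909 and 8229 for BMS493 replicates 1, 2 and 3, and 25000, 3730 and 2148 for co-culture. Levels are given below as CPM, counts relative to a TMM-scaled library total, always in the order of replicates 1, 2 and 3, which are also the batches mbb336, mbb339 and mbb340 of the labels. For mbb336, the co-cultured libraries have source names that point to the other cell type than their titles do. Adgre1, which encodes F4/80, was 40.1, 38.5 and 62.5 CPM in the PDPN+ co-culture libraries and averaged 3238 CPM in the co-culture macrophages, so the titles were followed.

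The cells carried the markers of their label, with others beside them. Pdpn stood at 197, 98.6 and 215 CPM with BMS493 and at 188, 91.3 and 136 CPM in co-culture. It did not mark PDPN+ cells alone. Macrophages of mbb340 held 683.3 CPM with BMS493, 328.6 in co-culture and 222.7 cultured alone, each above the matching PDPN+ library. BMS493 macrophages of mbb339, at 120.1 CPM, also lay above theirs. The co-culture and alone macrophages of mbb339, and those of mbb336 in each of these conditions, lay below. Summed over 9 fibroblast markers (Col1a1, Col1a2, Col3a1, Pdgfra, Pdgfrb, Dcn, Lum, Thy1 and Fap), the libraries held 22150 to 32530 CPM with BMS493 and 14180 to 40230 CPM in co-culture. Col1a1, Col1a2 and Col3a1 together made up most of each of these sums. The sum over 11 mesothelial markers was 1629, 406 and 18.3 CPM with BMS493 and 1451, 299 and 41.0 CPM in co-culture, highest in mbb336 and lowest in mbb340 in both groups. One of them, Wt1, a factor of mesothelium, stood at 35.2, 27.4 and 10.1 CPM against 59.1, 57.3 and 17.5 CPM, which overlap. Pan-macrophage markers (18 genes, none at 0) summed to 1806, 4230 and 2890 CPM with BMS493 and to 2679, 2495 and 1850 CPM in co-culture, against 83.1 to 148 CPM in PDPN+ cells cultured alone. The BMS493 and co-culture sums were 1.75% and 1.38% of the mean in macrophages cultured alone, and their part in the results was not tested. Lyz2 made up most of them, at 1478, 3435 and 2178 CPM with BMS493 and 2109, 1958 and 1376 CPM in co-culture. The percentages therefore mainly reflect that gene. Adgre1 was 22.4, 67.1 and 40.4 CPM with BMS493 and 0.708, 1.03 and 1.23 CPM in PDPN+ cells cultured alone. In turn, Col1a1 was 192, 191 and 255 CPM in BMS493 macrophages and 293, 140 and 67.4 CPM in co-culture macrophages. Macrophages cultured alone held 7.80, 1.37 and 3.37 CPM of it. These levels with BMS493 overlap those of co-culture and lie above those of cells cultured alone. Their source was not tested. In such bulk libraries fewer cells of a type and less RNA per cell cannot be told apart.

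**Figure D1:**
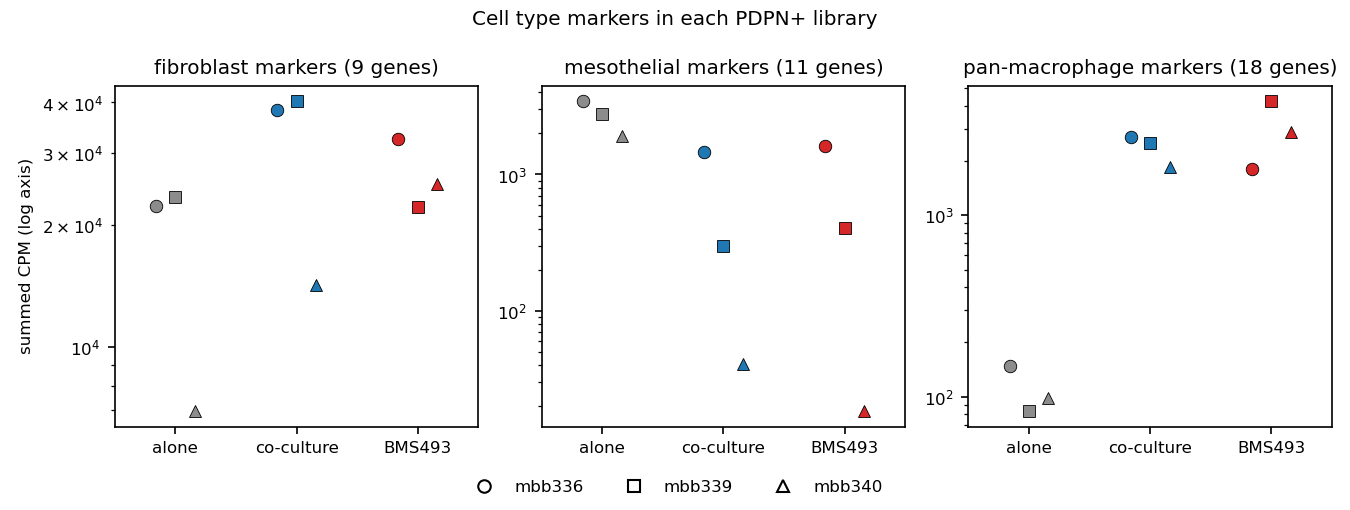
Summed CPM (log axis) of fibroblast, mesothelial and pan-macrophage markers in each PDPN+ library, with point shape for the batch. The mesothelial sums are highest in mbb336 and lowest in mbb340 in both the BMS493 and the co-culture libraries, and the pan-macrophage sums of both groups lie above those of cells cultured alone.

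Across all genes, edgeR called 3 lower with BMS493 and none higher. The 3 genes are Dhrs3, Resf1 and Gm42503, a transcript model without a named function. They are 0.0157% of the 19134 genes tested by edgeR's quasi-likelihood test with Benjamini-Hochberg adjustment, called at an adjusted p under 0.05. The same test gave 0 higher genes (0%), while 192 genes had an unadjusted p under 0.05 on the higher side (1%) and 392 on the lower side (2.05%), together 3.05%. DESeq2 called 112 genes (83 lower, 29 higher) and limma voom with sample quality weights 128 (95 lower, 33 higher). Both called 74 of these, 58 lower and 16 higher. With the replicate number as a block, edgeR called 0 genes, the lowest adjusted p being 0.0854. The call of all 3 genes was also lost without BMS493 replicate 1 or 2 or co-culture replicate 1 or 2 (0 genes each). Without BMS493 replicate 3 edgeR called 18 genes and without co-culture replicate 3 it called 8, all of them lower and the 3 among them both times.

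Dhrs3, the retinaldehyde reductase, had the lowest p of all genes. It stood at 2.78, 8.40 and 7.07 CPM with BMS493 and at 233, 200 and 75.8 CPM in co-culture. Every BMS493 library lay far below every co-culture library, and the smallest gap was in mbb340, where the co-culture level was lowest. The log2 fold change was -4.82 (SE 0.54, edgeR adjusted p = 0.0297), a 28.1-fold lower level. Within batches mbb336, mbb339 and mbb340 the log2 ratio of CPM + 0.5 was -6.15, -4.50 and -3.33. PDPN+ cells cultured alone lay between the groups, at 96.0, 85.1 and 102 CPM. Against these cells BMS493 gave -3.98 (edgeR adjusted p = 0.027) and co-culture 0.84 (edgeR adjusted p = 0.54). These contrasts share libraries with the first one, and that of BMS493 called 46 genes in all (0.24%).

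Resf1, which encodes retroelement silencing factor 1, a protein known for its part in repressing endogenous retroviruses, was next. It stood at 22.8, 22.9 and 23.0 CPM with BMS493 and at 123, 117 and 69.2 CPM in co-culture. The 3 BMS493 libraries were nearly equal and lay below all of the others. The log2 fold change was -2.18 (SE 0.26, edgeR adjusted p = 0.0297). Cells cultured alone held 84.2, 83.3 and 93.0 CPM, and BMS493 gave -1.94 against them (edgeR adjusted p = 0.027). The gene spans 149309414 to 149335663 on chromosome 6 of GRCm38.

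Gm42503, on chromosome 5 from 143770040 to 143773745, is a transcript model of unproven status (biotype TEC), and it is named here because it is one of the 3 calls. It stood at 0.317, 0.572 and 0.827 CPM with BMS493 and at 13.5, 10.6 and 20.2 CPM in co-culture. The groups did not overlap, and the log2 fold change was -4.69 (SE 0.58, edgeR adjusted p = 0.0307).

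**Figure D2:**
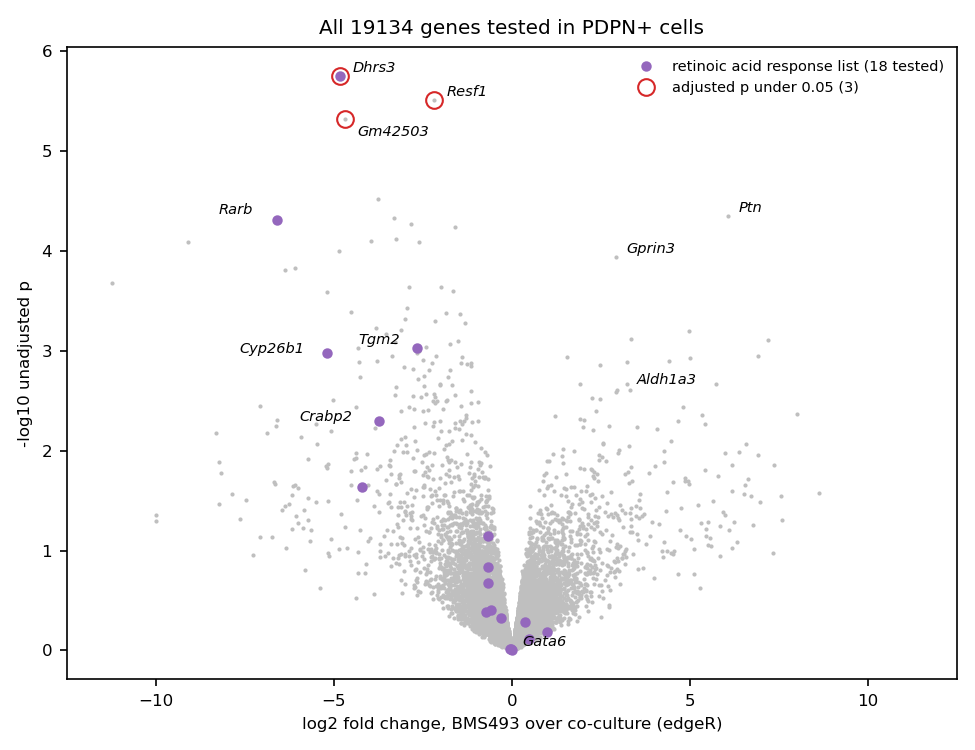
Log2 fold change of BMS493 over co-culture (horizontal) against -log10 of the unadjusted p (vertical) for the 19134 genes tested by edgeR in PDPN+ cells. Purple points are the 18 tested genes of the retinoic acid response list, and red rings mark the 3 genes with an adjusted p under 0.05, all on the lower side.

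Among the receptors, Rarb stood apart from the rest. It was at 0.106, 0 and 0.641 CPM with BMS493 and at 24.3, 28.1 and 22.1 CPM in co-culture. The groups did not come near each other: 42 reads in all against 3448. The log2 fold change was -6.58 (SE 1.04), yet edgeR's adjusted p was 0.12, so the gene was not called in the main test. It was called by DESeq2 and by voom. Against cells cultured alone, at 20.9, 18.1 and 5.24 CPM, BMS493 gave -5.81 (edgeR adjusted p = 0.049). The 3′ end of Rarb overlaps that of Top2b on the other strand, and since nothing states whether the counting used strand, reads from the shared stretch cannot be told apart. Top2b itself had a log2 fold change of 0.18 (edgeR adjusted p = 1).

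The other receptors differed little. Rarg stood at 9.97, 12.8 and 14.5 CPM with BMS493 and at 17.5, 22.5 and 18.3 CPM in co-culture, groups that did not overlap, with a log2 fold change of -0.67 (SE 0.33, edgeR adjusted p = 1). Rara (-0.14, SE 0.27), Rxra (-0.07, SE 0.30) and Rxrb (0.17, SE 0.34) overlapped between the groups. Rxrg was too low to be tested, with 1, 2 and 10 reads against 1, 9 and 14. Of the 5 receptors tested, 2 did not overlap on the lower side, where 5.01% of all genes did, and none did on the higher side, where 4.11% did (9.12% in either direction). On the deposited scale per transcript length (nRPKM, a size-factor-adjusted RPKM), the levels in co-culture were 7.51 ± 0.985 for Rxrb, 7.43 ± 0.799 for Rarb, 5.81 ± 0.715 for Rarg, 4.77 ± 0.476 for Rara, 1.61 ± 0.170 for Rxra and 0.0782 ± 0.0693 for Rxrg (SD, n = 3). Rxrb and Rarb did not differ beyond their spread. With BMS493 the order was Rxrb at 8.51 ± 0.725 nRPKM, Rara at 4.37 ± 0.595, Rarg at 3.70 ± 0.618, Rxra at 1.55 ± 0.451, Rarb at 0.0727 ± 0.0996 and Rxrg at 0.0355 ± 0.0324. Rarb was thus level with Rxrb in co-culture and, with BMS493, last of the 5 tested receptors, where it did not differ from Rxrg beyond their spread. Rara and Rarg stood in opposite order in the groups: the gap between their means was above their SDs in co-culture, where Rarg was higher in each library, and close to them with BMS493.

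Of the 4 tested genes of retinoid breakdown and feedback, Dhrs3 fell, 3 did not overlap on the lower side (where 5.01% of all genes did not), and Cyp26a1 was the exception. Stra6, the membrane receptor for retinol uptake, was at 0, 0.0994 and 0.0844 CPM with BMS493 and at 1.30, 1.36 and 0.904 CPM in co-culture. Its groups did not overlap (log2 fold change -4.20, SE 1.60, edgeR adjusted p = 1). Cyp26b1, a retinoic acid hydroxylase, had 1 read over the 3 BMS493 libraries and 50 over the 3 co-culture libraries, a ratio of 51.1 with an exact 95% interval of 8.75 to 2060 that covers counting error only. The test between libraries did not call it (log2 fold change -5.19, SE 1.19, edgeR adjusted p = 0.43). Cyp26a1, the related enzyme whose promoter is shown above, was at 1.88, 0.994 and 0 CPM with BMS493 and at 1.94, 0.116 and 0 CPM in co-culture, and these overlap fully. Cyp26c1 had 1, 4 and 0 reads with BMS493 and 0 in co-culture, which overlap. Its 5 reads, 4 of them in 1 library, are 1.63-fold above a floor of 3 counts over the group. That value leaves out counting error and the spread between libraries, so no difference can be read from it. Lrat had 3, 4 and 13 reads against 8, 3 and 5. Neither was tested.

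Among the 4 retinoid binding proteins given here (Rbp4, Crabp1, Crabp2 and Fabp5), Crabp2 differed most. This protein, which delivers retinoic acid to its receptors, stood at 0.741, 0.646 and 1.57 CPM with BMS493 and at 7.85, 12.9 and 18.2 CPM in co-culture. The groups did not overlap, and cells cultured alone, at 0.429, 0.947 and 1.96 CPM, lay at the BMS493 level rather than at that of co-culture. The log2 fold change was -3.74 (SE 1.08, edgeR adjusted p = 0.79).

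The enzymes that make retinoic acid differed among themselves. Aldh1a3 stood at 39.1, 78.9 and 231 CPM with BMS493 and at 4.22, 6.59 and 25.7 CPM in co-culture. It was the one gene of this list higher with BMS493 without overlap, and it was lowest in mbb336 and highest in mbb340 in both groups. Its log2 ratio within batches mbb336, mbb339 and mbb340 was 3.07, 3.49 and 3.14, so the 3 pairs were closer to each other than the levels were. The fitted log2 fold change was 3.22 (SE 0.82, edgeR adjusted p = 0.56). Aldh1a2, a further enzyme of the same step, was at 360, 235 and 175 CPM against 410, 322 and 177 CPM, which overlap (-0.25, SE 0.37). Aldh1a1, at 139, 11.5 and 0.911 CPM against 113, 32.1 and 0.738 CPM, was likewise highest in mbb336 and lowest in mbb340 in both groups, as the mesothelial sum was, with a log2 fold change of 0.06 (SE 1.52). Rdh10, the retinol dehydrogenase that feeds these enzymes, was at 22.2, 23.2 and 35.3 CPM against 38.0, 48.2 and 70.9 CPM. Its groups did not overlap, with a log2 fold change of -0.98 (SE 0.41, edgeR adjusted p = 1). Per transcript length, Aldh1a2 averaged 115 ± 43.8 nRPKM with BMS493 and 136 ± 52.5 in co-culture, above Aldh1a3 in both groups (26.2 ± 22.2 and 2.80 ± 2.73). Adh1 had 0, 8 and 16 reads with BMS493 and 0 in co-culture, so the groups overlap. Over the group its 24 reads are 7.84-fold above the same floor, a value that leaves out counting error and the spread between libraries. Cells cultured alone held 0.815, 0.710 and 0.0733 CPM. Of 14 genes of the synthesis and binding list, all tested, 2 did not overlap on the lower side (Rdh10 and Crabp2; 5.01% of all genes) and 1 on the higher side (4.11% of all genes). The other 9 members, Rdh11, Adh7, Rbp4, Crabp1, Retsat, Bco1, Dgat1, Fabp5 and Adh1, had edgeR adjusted p values of 1.

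**Figure D3:**
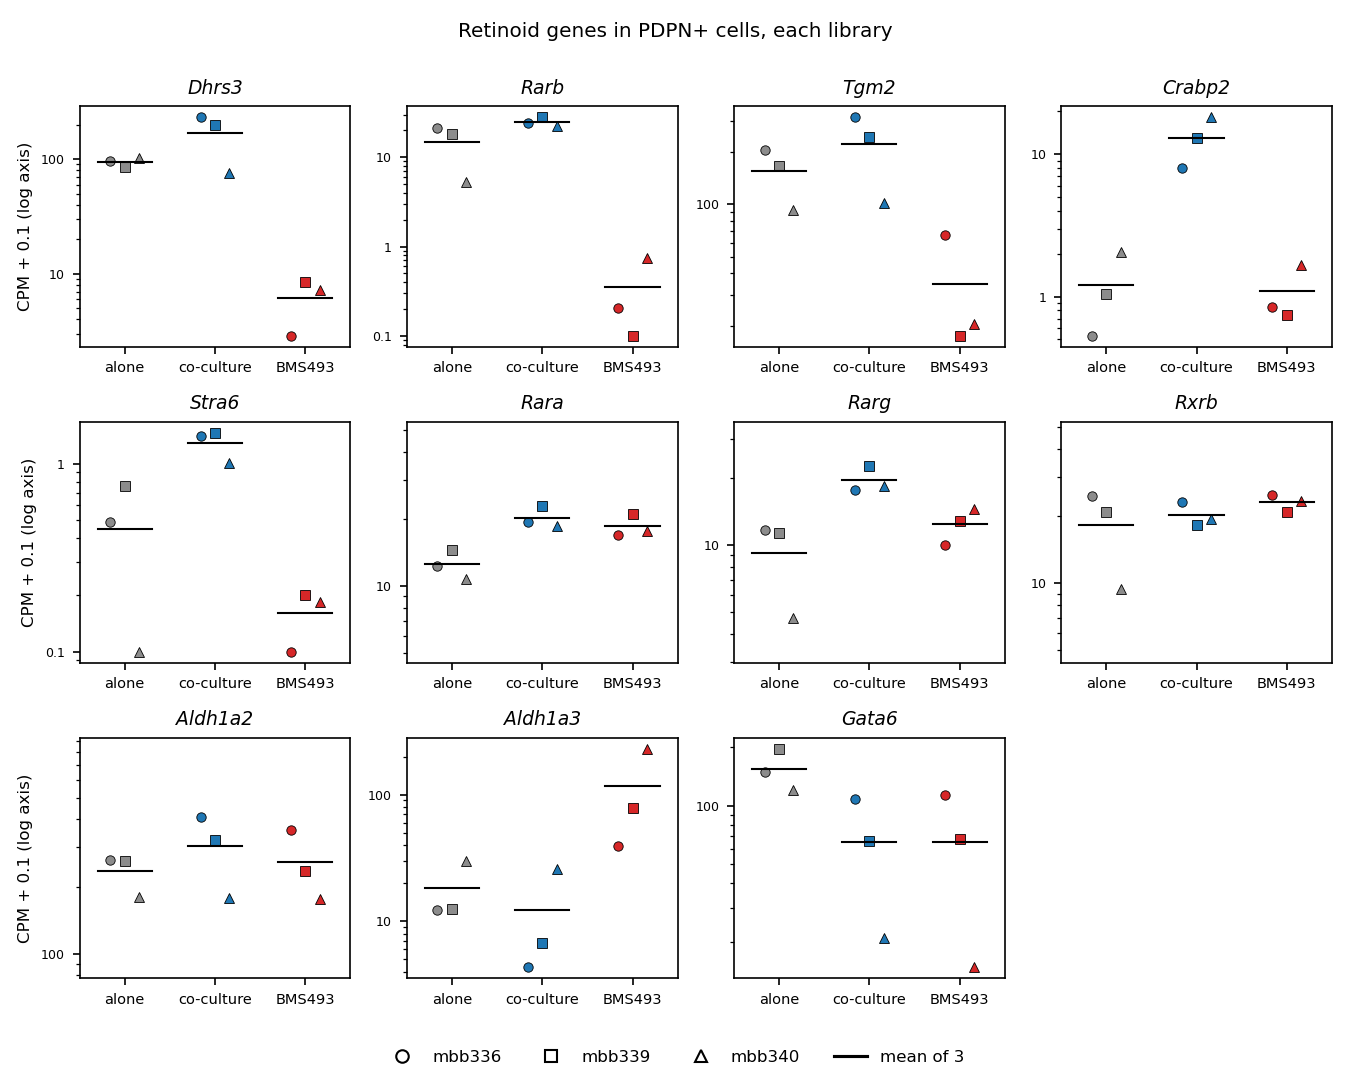
CPM + 0.1 (log axis) of 11 retinoid genes in each PDPN+ library cultured alone, in co-culture or with BMS493, with point shape for the batch and a line at the mean of 3. Dhrs3, Rarb, Tgm2, Crabp2, Stra6 and Rarg lie lower with BMS493 than in co-culture in every library, Aldh1a3 lies higher, and Rara, Rxrb, Aldh1a2 and Gata6 overlap.

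The retinoic acid response list held 21 genes known as targets or reporters of the pathway, of which 18 passed the filter on low counts. One of them, Dhrs3, fell (edgeR), while DESeq2 called 5 lower (Dhrs3, Rarb, Cyp26b1, Crabp2 and Tgm2) and voom 3 (Dhrs3, Rarb and Tgm2). Over all 19134 genes tested, edgeR called 3 lower, DESeq2 83 and voom 95. 7 did not overlap on the lower side (38.9%, against 5.01% of all genes) and 0 on the higher side. The 7 are Rarb, Rarg, Dhrs3, Cyp26b1, Stra6, Crabp2 and Tgm2, and all but Tgm2 were already counted in the lists above. Of the 18 fitted log2 fold changes, 14 were negative. The median was -0.67, against 0.01 over all genes tested, and the medians of the log2 ratios within batches mbb336, mbb339 and mbb340 were -0.62, -0.68 and -0.52. Within all 3 batches 11 of the 18 were lower (61.1%, against 15.2% of all genes). Tgm2, transglutaminase 2, a cross-linking enzyme long used as a reporter of retinoic acid, stood at 66.4, 17.4 and 20.5 CPM with BMS493 and at 316, 242 and 101 CPM in co-culture. The groups did not overlap (log2 fold change -2.67, SE 0.60, edgeR adjusted p = 0.43), and the gene was called by DESeq2 and by voom.

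The other tested members of the list overlapped between the groups, though Nrip1, Hic1, Meis2 and Rarres2 among them were lower within each batch. Gata6, the transcription factor of peritoneal macrophages that mesothelial cells also express, was at 114, 67.2 and 14.7 CPM with BMS493 and at 108, 66.0 and 20.8 CPM in co-culture. The pairs of a batch were close to each other and far from the other batches, in the order of the mesothelial sum, and the log2 fold change was 0.01 (SE 0.71). Nrip1, a corepressor of nuclear receptors, was at 27.5, 27.2 and 47.6 CPM against 32.6, 47.2 and 70.1 CPM, which overlap. Hic1, Meis1, Meis2, Rarres1, Rarres2, Ncoa7, Zfp703 and Ret overlapped between the groups, with log2 fold changes from -0.72 (Rarres2) to 0.98 (Ret). Hoxb1 (0, 3 and 1 reads against 6, 2 and 0), Cdx1 (6, 0 and 0 reads against 0) and Lrat were not tested.

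Hox genes set position along the body axis, and the 3′ members of each cluster respond to retinoic acid in embryos. Of 38 Hox genes listed, 21 passed the filter, 0 were called by edgeR (5 had an unadjusted p under 0.05, all lower, where 2.05% of all genes had), 6 did not overlap on the lower side (28.6%, against 5.01% of all genes) and 0 on the higher (4.11% of all genes). DESeq2 and voom each called 1, Hoxa5, among the 83 and 95 that they called lower over all 19134 genes tested. The 6 are Hoxa2, Hoxa5, Hoxb3, Hoxb5, Hoxc4 and Hoxc5. Hoxa5 had the lowest p among them, at 18.7, 14.5 and 10.4 CPM with BMS493 and 44.3, 45.8 and 33.3 CPM in co-culture. Its groups did not overlap (log2 fold change -1.51, SE 0.33, edgeR adjusted p = 0.42). The median of the 21 was -0.62, and the medians within batches mbb336, mbb339 and mbb340 were -0.56, -0.49 and 0.11, so the lower median was not seen in mbb340. The 5 positive values were those of Hoxb6, Hoxb9, Hoxc6, Hoxc13 and Hoxd8, from 0.24 (Hoxc6) to 1.43 (Hoxd8), each with overlapping groups.

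**Figure D4:**
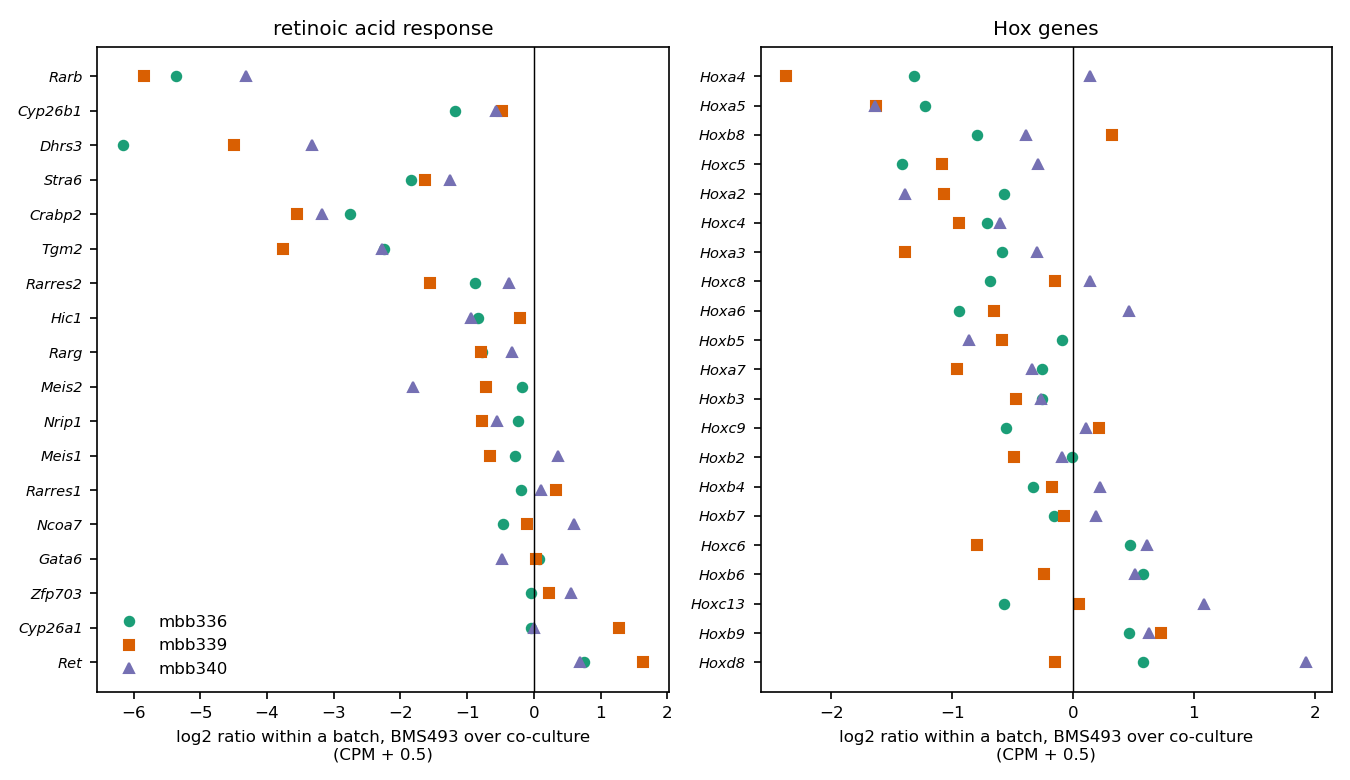
Log2 ratio of CPM + 0.5, BMS493 over co-culture, within each of the 3 batches for the 18 tested genes of the retinoic acid response list (left) and the 21 tested Hox genes (right), ordered by the fitted log2 fold change. Rarb, Dhrs3, Crabp2, Tgm2 and Stra6 lie well below 0 in each batch, while Gata6 and Ncoa7 lie on both sides of 0.

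Outside the retinoid lists, the lower genes with the smallest p (no overlap, and 10 CPM or more on average in the group with more, conditions that fix their separation) included Adamtsl1, Aifm2, Etfbkmt, Gda, Slc43a3, Pstpip1 and Gabra3. Of these 7, edgeR called 0, with adjusted p values from 0.12 to 0.23, while DESeq2 called all 7 and voom 6, all but Gabra3. Adamtsl1, a secreted glycoprotein of the matrix, stood at 7.54, 4.15 and 2.58 CPM with BMS493 and at 33.0, 37.7 and 29.96 CPM in co-culture, where the 3 libraries were nearly level. Aifm2, an oxidoreductase that protects membranes from lipid peroxidation, was at 7.46, 6.69 and 11.02 CPM against 20.3, 25.8 and 28.3 CPM. Etfbkmt, a mitochondrial lysine methyltransferase, was at 3.78, 2.51 and 2.24 CPM against 39.9, 31.8 and 9.02 CPM. Slc43a3, a carrier of purine nucleobases, was even with BMS493 at 43.3, 44.4 and 51.9 CPM and uneven in co-culture, at 256, 221 and 76.3 CPM. Gabra3, a subunit of the GABA-A receptor, was at 0.450, 2.61 and 1.91 CPM against 112, 59.7 and 6.83 CPM. In Etfbkmt, Slc43a3 and Gabra3 the co-culture library of mbb340, the one from the fewest sorted cells, was the nearest to the BMS493 libraries. Against cells cultured alone, BMS493 gave edgeR adjusted p values of 0.036 for Adamtsl1, 0.042 for Aifm2, 0.041 for Etfbkmt and 0.042 for Slc43a3. Pstpip1, a cytoskeletal adaptor of blood cells, differed from these in that cells cultured alone, at 8.02, 7.89 and 6.06 CPM, lay near the BMS493 libraries (5.93, 5.94 and 4.15) and below the co-culture ones (17.5, 21.03 and 11.6). Gda, guanine deaminase, is among the genes over 4 times higher in macrophages than in PDPN+ cells cultured alone. It was at 1.27, 2.88 and 4.08 CPM against 15.3, 20.3 and 13.8 CPM here and averaged 289 CPM in the co-culture macrophages, and the part of macrophage transcripts in its difference was not tested.

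The higher genes with the smallest p under the same conditions were Ptn, Gprin3, Col15a1, Phyhipl, Il1rl1, Aldh1a3, Slc1a3, Srpx2, Tgfbi and Hr, and none of them was called by edgeR. Ptn, pleiotrophin, a secreted heparin-binding growth factor, stood at 40.5, 82.1 and 76.7 CPM with BMS493 and at 1.30, 1.45 and 0.167 CPM in co-culture. The groups were far apart, and cells cultured alone, at 2.17, 1.39 and 2.27 CPM, were near the co-culture level. The log2 fold change was 6.07 (SE 0.95, edgeR adjusted p = 0.12). Gprin3 stood at 39.0, 40.5 and 55.2 CPM against 7.07, 5.89 and 4.45 CPM (log2 fold change 2.93, SE 0.51, edgeR adjusted p = 0.15). Of the 10, DESeq2 and voom both called 7 (Ptn, Gprin3, Col15a1, Phyhipl, Il1rl1, Aldh1a3 and Srpx2), DESeq2 alone called Slc1a3 and Tgfbi, and neither called Hr. Il1rl1, the receptor of interleukin 33, was at 32.9, 25.6 and 12.9 CPM against 8.72, 5.21 and 4.78 CPM. Slc1a3, a glutamate transporter, was at 26.4, 33.1 and 10.3 CPM against 1.07, 6.10 and 2.07 CPM, and like Il1rl1 it was lowest with BMS493 in mbb340. Srpx2, a secreted protein, was at 29.4, 37.7 and 113 CPM against 7.46, 9.44 and 20.04 CPM. Tgfbi, a secreted matrix protein of the class higher in macrophages, was at 48.0, 43.6 and 191 CPM against 15.1, 17.8 and 20.9 CPM. For Srpx2, Tgfbi and Hr, a nuclear corepressor, the BMS493 library of mbb340 was the highest by far. Tgfbi averaged 309 CPM in BMS493 macrophages and 65.7 CPM in co-culture macrophages, and their part in the PDPN+ difference was not tested.

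**Figure D5:**
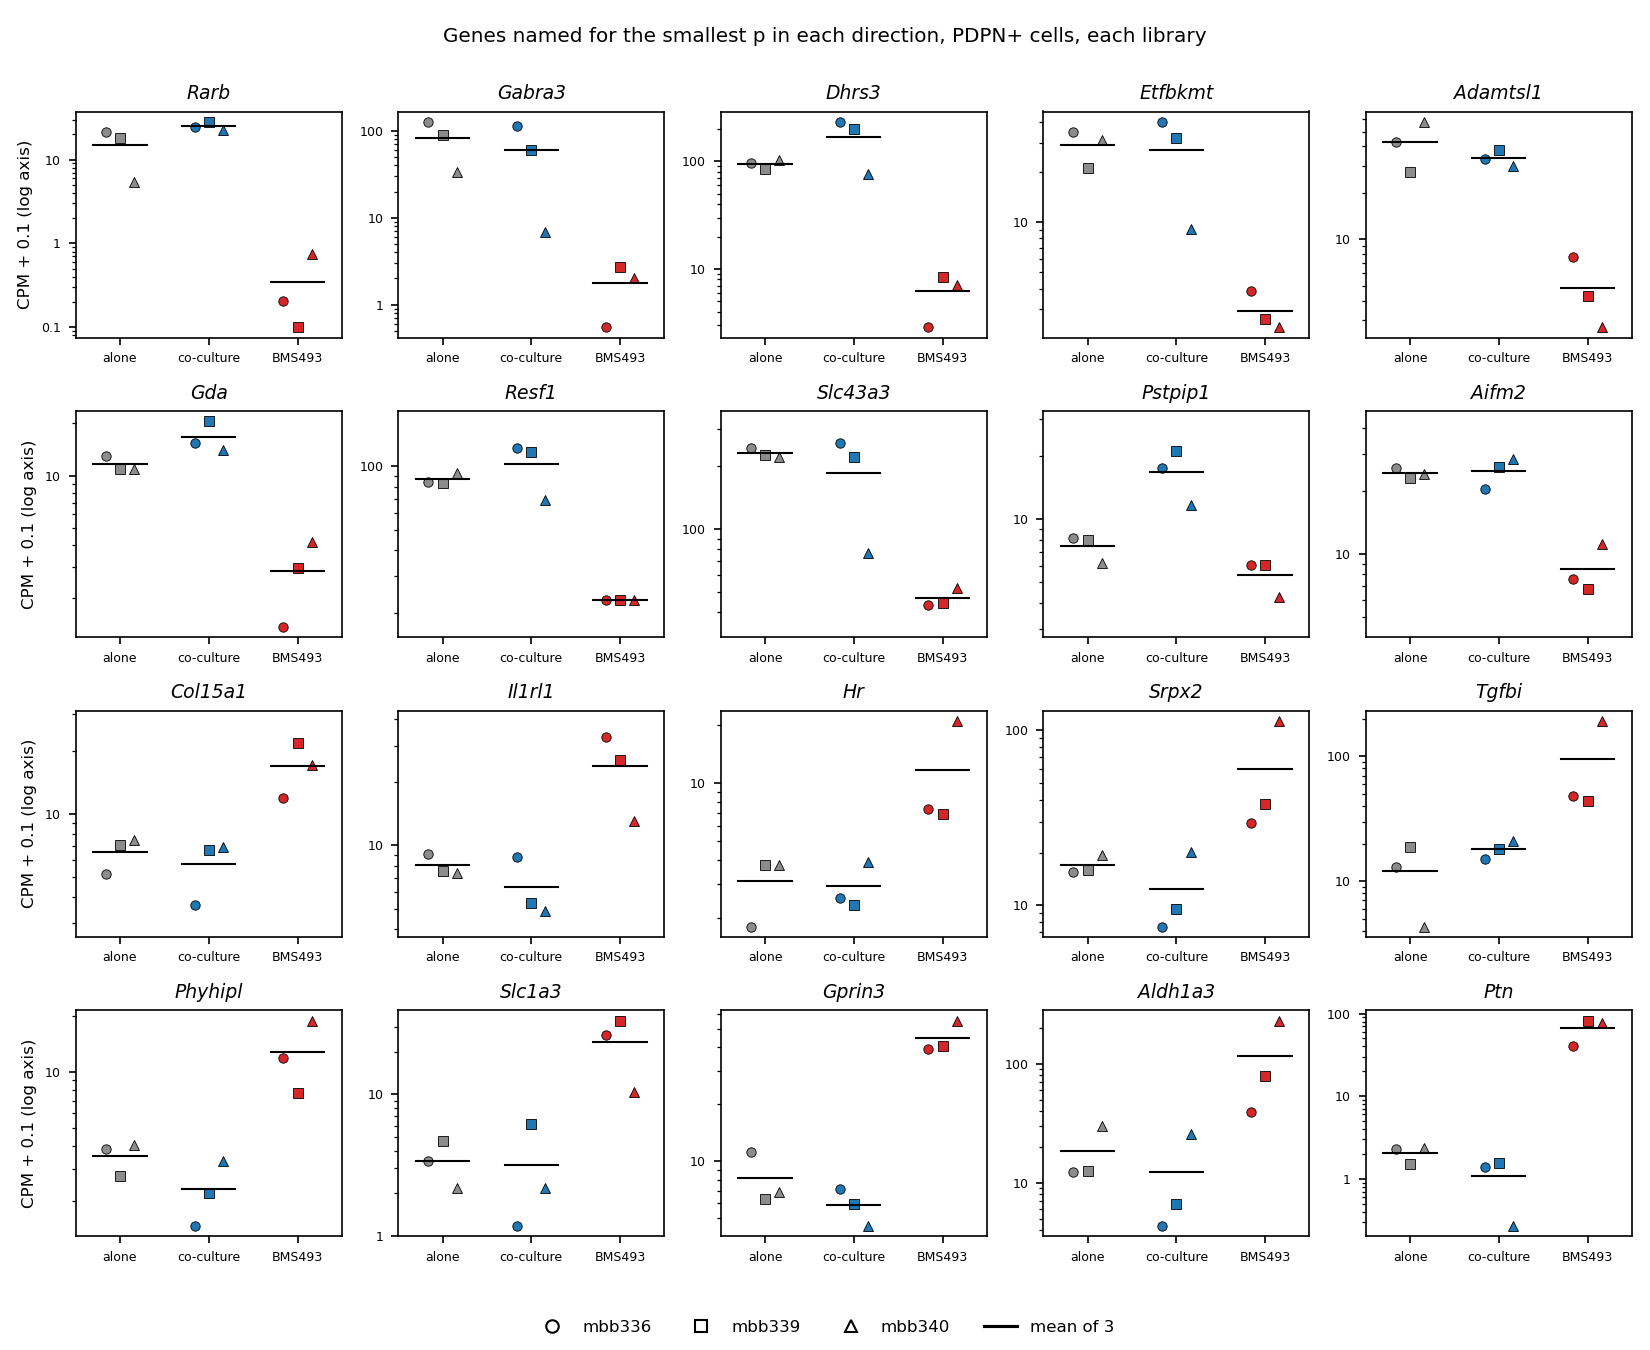
CPM + 0.1 (log axis) in each PDPN+ library of the 10 lower (first 2 rows) and 10 higher genes (last 2 rows) with the smallest p, chosen for groups that do not overlap. Point shape gives the batch and the line the mean of 3. Cells cultured alone lie near the co-culture libraries for most of them, and near the BMS493 libraries for Pstpip1.

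Genes of the other lists are named here after their values were seen. Of 20 collagen chains, a main product of fibroblasts, 5 did not overlap on the higher side (Col4a2, Col6a1, Col6a3, Col15a1 and Col18a1; 4.11% of all genes) and 0 on the lower. edgeR called 0 (2 with an unadjusted p under 0.05, both higher, where 1% of all genes had), and DESeq2 and voom each called 1, Col15a1. Over all 19134 genes tested, DESeq2 called 29 higher and voom 33. The median log2 fold change was 0.40, and the medians within batches mbb336, mbb339 and mbb340 were 0.39, -0.07 and 0.72. Col15a1, at 11.8, 21.7 and 16.9 CPM against 3.58, 6.61 and 6.88 CPM, had the lowest p (log2 fold change 1.55, SE 0.36, edgeR adjusted p = 0.43). The abundant fibrillar chains Col1a1 (-0.22, SE 0.73), Col1a2 (-0.14, SE 0.47) and Col3a1 (-0.28, SE 0.68) overlapped. Of 23 cell cycle genes, 20 of cholesterol synthesis and 11 of heat shock, 0 were called by edgeR, DESeq2 or voom. In these 3 lists 0 had an unadjusted p under 0.05 by edgeR (3.05% of all genes), and 0 did not overlap in either direction (9.12% of all genes). The list of 14 coregulators of nuclear receptors includes the partners that BMS493-bound receptors recruit. Of these, 1 was lower without overlap (7.14%, against 5.01% of all genes) and 1 higher (4.11% of all genes), near those shares. They were Ncoa2 (-0.41, SE 0.24) and Hdac3 (0.10, SE 0.23). Both had an edgeR adjusted p of 1. Within the fibroblast list, Fap, a surface protease, was at 1.22, 0.323 and 1.06 CPM against 5.59, 4.73 and 9.52 CPM (-2.94, SE 0.59, edgeR adjusted p = 0.31), and it was called by DESeq2 and by voom. Des, the muscle intermediate filament desmin in the contractile list, was at 129, 246 and 77.9 CPM against 592, 912 and 312 CPM (-2.004, SE 0.58, edgeR adjusted p = 0.79), and neither called it. Both were lower in every library.

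The same contrast in macrophages was set beside these values, and the difference between the cell types was tested over 18596 genes in a fit of the 12 libraries concerned. It was called for 4 genes (0.0215%; 5.04% had an unadjusted p under 0.05), none of them among the retinoid genes. In macrophages Rarb averaged 19.9 CPM in co-culture and 0.512 CPM with BMS493 (log2 fold change -5.33, edgeR adjusted p = 0.032, in a contrast with 100 called genes, 0.538%), and the difference between the cell types was -1.23 (SE 1.12, edgeR adjusted p = 1). Ptn gave 5.44 in macrophages (edgeR adjusted p = 0.039) and Aifm2 -1.54 (edgeR adjusted p = 0.021), with differences of 0.62 (SE 1.58) and -0.04 (SE 0.32). Ptn in macrophages averaged 2.11 CPM with BMS493, far below the PDPN+ level, and transcripts carried over from PDPN+ cells cannot be told apart from those of macrophages. Resf1 was level in macrophages, at 61.8 CPM in co-culture and 67.3 CPM with BMS493 (0.08), and the difference from PDPN+ cells was -2.26 (SE 0.33, edgeR adjusted p = 0.069). Dhrs3 averaged 249.6 CPM in co-culture macrophages and 93.7 CPM with BMS493 (-1.47, edgeR adjusted p = 0.32), a difference of -3.35 (SE 0.70, edgeR adjusted p = 0.29). Gata6 gave -3.47 in macrophages (edgeR adjusted p = 0.11) and 0.01 in PDPN+ cells, a difference of 3.46 (SE 1.03, edgeR adjusted p = 0.62). For none of these genes was the effect shown to differ between the cell types.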

How the data were processed

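The deposited files give, per the file headers, a count of reads for each of 50764 gene models and an nRPKM, an RPKM adjusted by the authors with size factors. The submitters' processing notes name GSNAP and GRCm38; for annotation, strand setting and versions: not given in the sources used here. Gene spans are from GENCODE on GRCm38, counted from 1. Counts were tested with edgeR 4.0.16 (quasi-likelihood, TMM, filterByExpr; R 4.3.3) in a fit of the 12 PDPN+ libraries with group as the factor. DESeq2 1.42.0 and limma 3.58.1 served as alternatives. The common biological coefficient of variation was 0.573. An SE is the log2 fold change divided by the square root of F. Nothing says that replicates come from separate animals or cultures, so p values measure the spread between these samples, which may be technical. The labels' batches pair same-numbered libraries, whose deviations from the group means correlated at 0.54, 0.105 and 0.497. No library copied another. Named genes are 4 retinoid lists, the 10 smallest p in each direction (at least 10 CPM, no overlap, proper symbol), called genes and 4 checks; others were named after their values were seen. The members and all 36 lists were chosen with earlier results of these data known, and 3 list members are not reported here. The fits were tested on simulated data. In these the main fit called 34% of genes given a log2 fold change of 2 in size and 79% at 4. It also called 5 of 18366 unchanged genes. For the difference between the cell types the shares were 38% and 80%. A gene that was not called may therefore still have changed.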

Additional observations from a re-analysis of the deposited data

Results flagged for a closer look

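The BMS493 effect differed between PDPN+ cells and macrophages for 4 genes by edgeR's test of the difference itself, out of 18596 tested. Each difference is given as the log2 fold change in PDPN+ cells minus that in macrophages.

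Cd55, a membrane protein that restrains complement, was at 52.0, 33.9 and 48.0 CPM with BMS493 and at 23.2, 17.8 and 16.8 CPM in co-culture in PDPN+ cells. In macrophages it was at 5.13, 5.09 and 4.68 CPM against 24.5, 32.3 and 19.0 CPM, so the groups separated in opposite directions. Within PDPN+ cells the log2 fold change of 1.20 was not called by edgeR, while that of -2.40 within macrophages was (edgeR adjusted p = 0.0038). The difference was 3.59 (SE 0.35, edgeR adjusted p = 0.014).

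Klhl12, a substrate adaptor of a ubiquitin ligase, averaged 35.1 ± 1.47 CPM with BMS493 and 29.2 ± 3.47 in co-culture in PDPN+ cells (SD, n = 3). The macrophage means were 15.7 ± 0.51 and 63.5 ± 15.5 CPM, and the difference was 2.32 (SE 0.25, edgeR adjusted p = 0.020).

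Cd276, the immune checkpoint protein B7-H3, averaged 40.6 ± 4.48 and 40.8 ± 7.50 CPM in PDPN+ cells with BMS493 and in co-culture. In macrophages it averaged 27.95 ± 2.15 and 2.499 ± 1.07 CPM, and the difference was -3.46 (SE 0.42, edgeR adjusted p = 0.042).

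Abcb1b, a drug efflux pump, was at 11.4, 14.8 and 14.3 CPM with BMS493 and at 52.4, 47.4 and 44.4 CPM in co-culture in PDPN+ cells, where the groups did not overlap. Within these cells edgeR did not call it (log2 fold change -1.84, edgeR adjusted p = 0.63), and voom did. In macrophages the means were 48.6 ± 7.91 and 34.1 ± 8.08 CPM, and the difference was -2.31 (SE 0.29, edgeR adjusted p = 0.043).

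With the replicate number as a block 13 genes were called, and with 1 library left out 0 to 5. Over 17 alternatives each, the call held in 10 for Cd55, 7 for Klhl12, 6 for Cd276 and 5 for Abcb1b, with adjusted p values of up to 0.24, 0.38, 0.15 and 0.59, and the sign held in all. The 4 genes were in none of the gene lists used here.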

How the results depend on the processing

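Dhrs3, Resf1 and Gm42503 kept their direction under all 17 alternatives run for each, with log2 fold changes from -5.28 to -4.17, -2.44 to -2.02 and -5.03 to -4.39. They were called under 8, 8 and 7 of these. The count of 3 called genes, all lower, became 112 with DESeq2 (83 lower, 29 higher), 128 with voom and quality weights (95 lower, 33 higher) and 6 without a low count filter (5 lower, 1 higher). It became 0 in a fit of the 6 libraries alone, with the replicate block, without mbb336, without mbb339 and without the co-culture libraries of low input, which leaves 1 co-culture library, assumed to vary like the other groups. It became 14, all lower, without mbb340, and ranged from 0 to 18 with 1 library left out (higher genes 0 throughout). For the difference between cell types, 4 called genes became 13 with the replicate block, 1 in a fit of 21 libraries of 7 groups and 154 with DESeq2, and 0 to 5 with 1 library left out. The cause was not tested. The replicate block ended the calls of Dhrs3, Resf1 and Gm42503 and changed that of no other named gene. Over the 55 named genes tested, 868 of 928 gene and setting pairs kept the sign, and no called gene turned. At 29718802 counts, the lowest depth, 3 counts are 0.101 CPM, so the levels of Stra6, and of Rarb in replicates 1 and 2, with BMS493 are near the floor.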

Other observations

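Etfbkmt and Bicd1, which lie near Resf1, had lower mean levels with BMS493, and edgeR called neither. Between Dennd5b and Bicd1 on chromosome 6 of GRCm38, 8 genes were tested, 5 of them protein coding. This stretch was looked at after the values of Resf1 and Etfbkmt were seen. Etfbkmt (149139849 to 149151171), 158.2 kb before Resf1, had a log2 fold change of -3.25 (SE 0.54, edgeR adjusted p = 0.12). Bicd1 (149408886 to 149563329), 73.2 kb after Resf1, is an adaptor of the dynein motor. It stood at 6.80, 4.90 and 0.861 CPM with BMS493 and at 71.0, 33.0 and 5.40 CPM in co-culture. Its groups overlap only in that the co-culture library of mbb340 lay below one BMS493 library, and the log2 fold change was -3.12 (SE 0.87, edgeR adjusted p = 0.69). Amn1, which lies between Etfbkmt and Resf1, was level, at 13.0, 11.5 and 15.2 CPM against 14.4, 9.92 and 14.3 CPM (0.03, SE 0.31). Dennd5b, on the far side of Etfbkmt, gave -0.50 (SE 0.55), with overlapping groups. Gm10388, the tested model nearest to Resf1 (22.6 kb), gave -0.44 (SE 0.54). 1700003I16Rik gave -0.61 (SE 0.86) and Gm49058 -0.55 (SE 0.74), and the groups overlapped for each of these models.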
